A study of Mus musculus with 24 samples.

Results

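The 9 genes described here encode cytokines of the interleukin-1 (IL-1) family, their receptors and their natural inhibitors. They were taken by symbol, through the GENCODE annotation, from 52636 gene models counted in 24 RNA-seq libraries of macrophages grown in culture from mouse bone marrow. The agonists are Il1a, Il1b, Il18 and Il33, the inhibitors are Il1rn, Il18bp and Il1r2, and the signalling receptor and its partner are Il1r1 and Il1rap. Libraries were made from macrophages of Ninj1 knockout mice stimulated with Pam3 (KO_Pam3), wild-type C57BL/6 mice stimulated with Pam3 (WT_Pam3), Ninj1 knockout mice kept in media only (KO_media) and wild-type C57BL/6 mice kept in media only (WT_media), with 6 libraries in each group. Pam3 is the usual short name of a synthetic lipopeptide that activates the receptor pair TLR1 and TLR2, whose dose and duration the sources used here do not state. NINJ1 is a membrane protein that ruptures the plasma membrane in lytic cell death. The labels do not state the animals' age or which part of Ninj1 was deleted. Nor do they say that the libraries of a group are separate animals or cultures, and the p-values then measure only the spread between libraries, which may be technical.

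IL-1 alpha and IL-1 beta bind the same receptor, IL-1R1, which then recruits the accessory protein IL-1RAP and signals through MYD88 and the IRAK kinases. IL-1RA, the product of Il1rn, occupies the receptor without signalling, IL-1R2 binds IL-1 without signalling, and IL-18BP captures IL-18. Macrophages are a main source of IL-1 beta and IL-18, which are made as inactive precursors, cut by caspase-1 in inflammasomes and released through gasdermin D pores, so RNA levels do not measure the active cytokine. IL-1 alpha and IL-33 act as alarmins that leave damaged cells.

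All libraries were deep, with 31302011 to 40663152 counted reads each. Levels of a gene are compared between groups as CPM, its reads per library size adjusted by TMM, and levels of different genes are compared as the authors' length-scaled RPKM. Ninj1 itself averaged 429 ± 25.7 CPM in KO_Pam3 against 810 ± 176 CPM in WT_Pam3, and 167 ± 9.68 CPM in KO_media against 307 ± 15.7 CPM in WT_media (SD, n = 6), with 6 of 6 KO libraries below all WT libraries each time. The macrophage markers summed to 32413 to 34007 CPM in KO_Pam3, 34364 to 39241 in WT_Pam3, 27043 to 27705 in KO_media and 26452 to 28138 in WT_media, and none of the 10 was at 0. Xist ran from 233 to 796 CPM over the 24 libraries and 4 Y-linked genes had 28 counts in all, whereas the WT libraries are labelled male. WT_Pam3 replicate 5 stood apart, with 12.2% of its reads in the 10 most abundant genes against 9.49% to 9.60% in the other WT_Pam3 libraries, and KO_media replicate 1 stood apart for several members.

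The members lie on 6 chromosomes of GRCm38. Il1a (chr2:129299610-129309972, minus strand) and Il1b (chr2:129364570-129371139, minus strand) are neighbours with a gap of 54.6 kb, and Il1rn (chr2:24336853-24351494, plus strand) lies elsewhere on that chromosome. Il1r2 (chr1:40074079-40125231) and Il1r1 (chr1:40225080-40317257) are separated by 99.8 kb on the plus strand. Il18 is at chr9:50554827-50581840 on the plus strand, Il18bp at chr7:102014885-102018690 on the minus strand, Il1rap at chr16:26581704-26730117 and Il33 at chr19:29925114-29960718, both on the plus strand.

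The 250 bases before the start site are shown for the 4 members whose transcripts rose more than 10-fold with Pam3, because these genes rose together. Sequences are those of RefSeq on GRCm38.p6, in which all 9 members had an entry, with 13 start sites in all. They run 5′ to 3′ on the gene's strand. Capitals mark matches on either strand to NF-kB (GGG and CC with any 5 bases between, and in a strict form GGG and TTTCC with any 2 bases between), AP-1 (TGANTCA), C/EBP (TTNNGNAA), the PU.1 core (GAGGAA) and ISRE (GAAA repeated after any 2 bases). The Il1a window is chr2:129309973-129310222, the Il1b window chr2:129371140-129371389, the Il1rn window chr2:24345121-24345370 at its downstream start, and the Il18 window chr9:50554450-50554699.
Il1a: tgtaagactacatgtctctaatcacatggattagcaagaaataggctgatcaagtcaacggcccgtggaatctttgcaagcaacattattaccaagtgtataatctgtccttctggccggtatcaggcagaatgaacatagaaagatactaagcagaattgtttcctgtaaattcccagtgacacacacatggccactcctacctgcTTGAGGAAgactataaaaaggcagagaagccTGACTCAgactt
Il1b: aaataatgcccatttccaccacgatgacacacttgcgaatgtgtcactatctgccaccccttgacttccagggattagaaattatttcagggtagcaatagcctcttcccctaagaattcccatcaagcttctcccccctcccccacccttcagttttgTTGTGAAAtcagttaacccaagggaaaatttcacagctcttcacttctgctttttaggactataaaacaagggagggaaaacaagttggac
Il1rn: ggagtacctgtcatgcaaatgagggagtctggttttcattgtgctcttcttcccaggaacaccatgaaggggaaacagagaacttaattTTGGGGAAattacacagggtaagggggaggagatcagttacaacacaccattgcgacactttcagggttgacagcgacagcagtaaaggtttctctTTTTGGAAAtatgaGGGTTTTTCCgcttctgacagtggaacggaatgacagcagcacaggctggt
Il18: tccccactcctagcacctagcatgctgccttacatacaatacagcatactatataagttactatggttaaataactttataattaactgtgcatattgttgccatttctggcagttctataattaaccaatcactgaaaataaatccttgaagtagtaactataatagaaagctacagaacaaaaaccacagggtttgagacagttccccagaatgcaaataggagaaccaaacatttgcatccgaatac
The Il1a window held an AP-1 match whose first base lies 12 bases before the start and a C/EBP match at 43 that contains the PU.1 core at 41. The Il1b window held only a C/EBP match, at 91. The Il1rn window held a strict NF-kB match at 51 and C/EBP matches at 161, 65 and 64, the last pair overlapping. Il1rn has 3 listed start sites, and the window of its most upstream one held an AP-1 match at 141 and an NF-kB match at 54. The window of the middle start held 1 C/EBP match, at 81, in bases that the printed window shares, so it counts in both. The printed Il1rn window was the one with the most matches of the 3. The Il18 window held none of the motifs. Over the 32851 promoter windows of the table, 45.8% held the NF-kB motif, 1.41% its strict form, 6.75% AP-1, 36.8% C/EBP, 23.3% the PU.1 core and 2.98% ISRE. Of the 13 member windows, 4 held NF-kB, 1 its strict form, 2 AP-1, 9 C/EBP, 1 the PU.1 core and 0 ISRE. A match is a string of letters and was not tested for binding, and the absence of one in these windows says nothing of more distant sites.

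Pam3 raised 6 of the 8 tested members in KO macrophages and 6 of 8 in WT macrophages, and none passed the test as lower in either genotype (edgeR quasi-likelihood test, Benjamini-Hochberg adjusted over all genes tested, adjusted p under 0.05). The members that rose were Il1b, Il1a, Il1rn, Il18, Il1rap and Il18bp. Over all 14435 tested genes, 40.2% rose in KO macrophages and 40.6% in WT macrophages, while 44.8% and 44.2% fell, so 85% and 84.8% changed in either direction. The median log2 fold change of the tested members was 2.15 in KO and 2.11 in WT, against -0.07 and -0.05 over all tested genes. The remaining member, Il33, was left out by the filter on low counts.

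Il1b, the main secreted IL-1 of macrophages, ran from 4841 to 5403 CPM in KO_Pam3 with a median of 5051, and from 3963 to 5142 CPM in WT_Pam3 with a median of 4262. In KO_media it ran from 0.548 to 2.68 CPM with a median of 0.772, and in WT_media from 0.397 to 0.829 CPM with a median of 0.502. Every stimulated library lay far above every unstimulated one, where the gene had 22 to 104 counts a library in KO_media and 19 to 38 in WT_media. The fitted log2 fold change was 12.24 in KO (SE 0.220, adjusted p = 1.38e-26 by edgeR) and 12.93 in WT (SE 0.231, adjusted p = 1.15e-26), the 4th highest of all tested genes in each genotype. The fitted fold was 4831 in KO and 7815 in WT, and the log2 fold change in KO was 12.73 without KO_media replicate 1. By the authors' RPKM, Il1b was the 11th most abundant gene in KO_Pam3, at 3393, and the 14th in WT_Pam3, at 2937.

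Il1a, the alarmin of the pair, ran from 642 to 739 CPM in KO_Pam3 with a median of 662, and from 514 to 665 CPM in WT_Pam3 with a median of 622. It ran from 0.424 to 1.31 CPM in KO_media with a median of 0.791, and from 1.11 to 1.33 CPM in WT_media with a median of 1.21. Stimulated and unstimulated libraries were far apart, with 18 to 51 counts a library in KO_media and 44 to 61 in WT_media. The log2 fold change was 9.70 in KO (SE 0.122, adjusted p = 6.73e-30 by edgeR, 18th of all tested genes) and 8.97 in WT (SE 0.117, adjusted p = 1.33e-29, 30th). Il1b transcripts outnumbered those of Il1a after Pam3, by a mean RPKM ratio of 11.0 ± 0.385 in KO_Pam3 and 10.6 ± 1.96 in WT_Pam3. In media the ratio was 1.86 ± 0.762 in KO_media and 0.686 ± 0.248 in WT_media (SD, n = 6), and it rested on few reads there. WT_Pam3 replicate 5 had a ratio of 14.6, the other 5 WT_Pam3 libraries lay at 9.39 to 10.4, and the KO_Pam3 libraries lay at 10.6 to 11.5, a description that carries no test.

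Il18, which drives interferon gamma production by lymphocytes, ran from 69.5 to 78.4 CPM in KO_Pam3 (median 74.4) and from 64.6 to 83.9 CPM in WT_Pam3 (median 69.6). In KO_media it ran from 5.13 to 7.04 CPM (median 5.64) and in WT_media from 4.56 to 6.58 CPM (median 5.31). Unlike Il1a and Il1b, it was measured with 184 counts or more in each unstimulated library. The rise was 3.67 on the log2 scale in KO (SE 0.0818, adjusted p = 1.62e-24 by edgeR) and 3.72 in WT (SE 0.0822, adjusted p = 1.34e-24), a fitted 12.7-fold and 13.1-fold. Il33, an epithelial and stromal alarmin, had 1 count in KO_Pam3 replicate 2 and 0 in the other 23 libraries. With 3 counts as the upper limit for a library at 0, the Il33 level there was bounded at 0.0627 to 0.111 CPM, depending on the library.

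**Figure D1:**
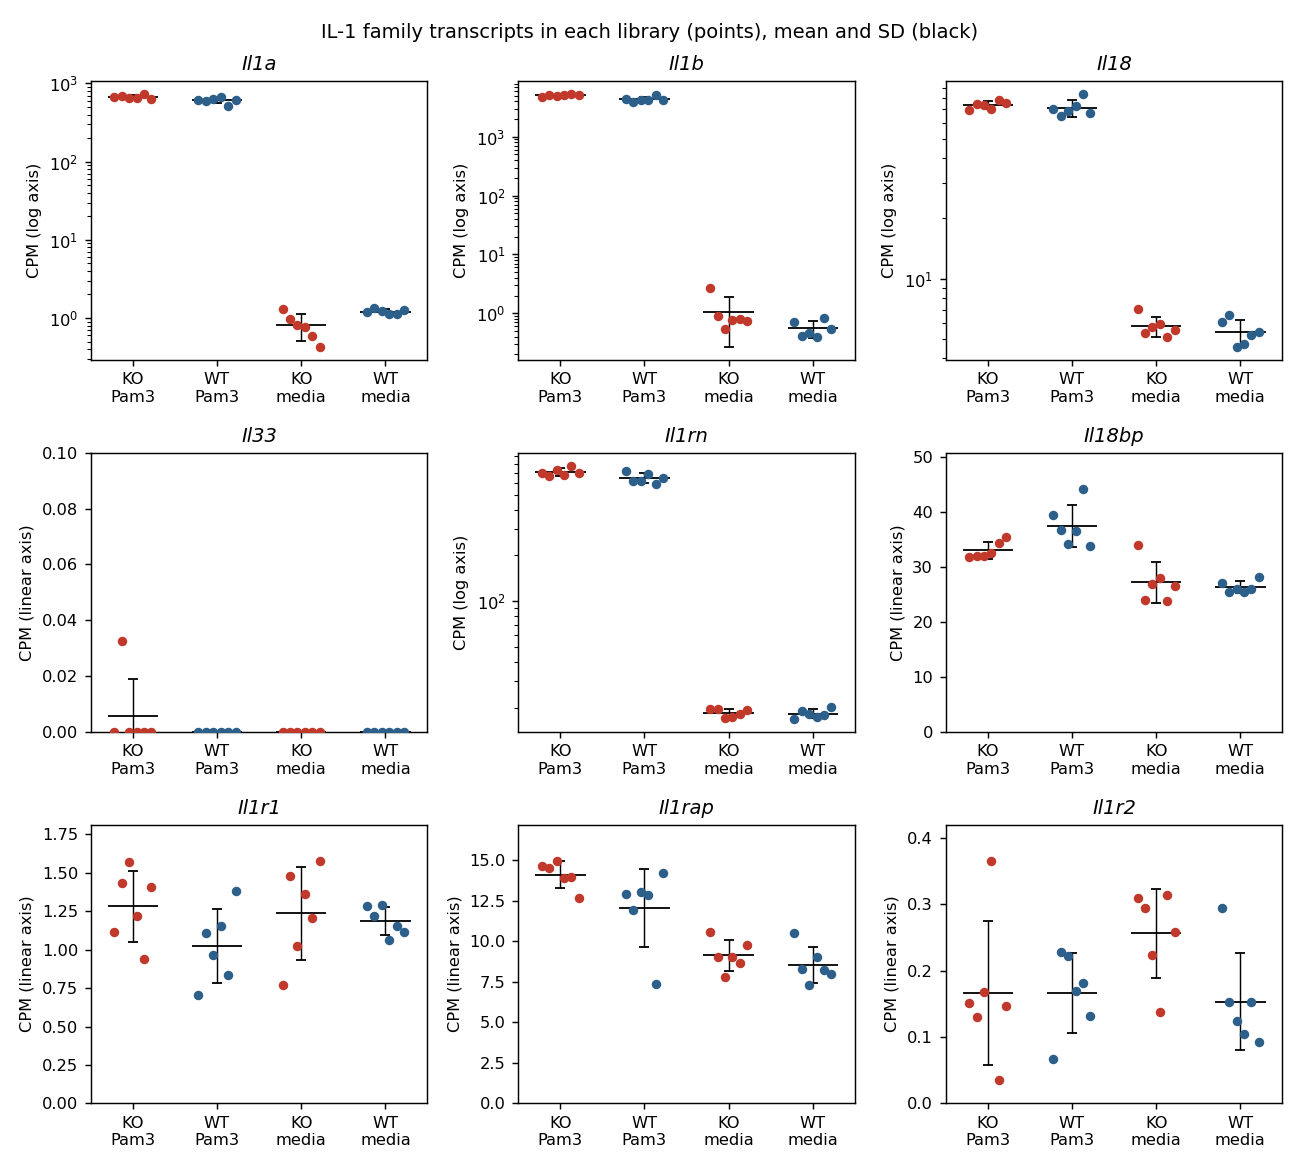
Level of each of the 9 genes in each library (points; CPM, on a log axis for Il1a, Il1b, Il18 and Il1rn and on a linear axis from 0 for the others), with the mean and SD of the 6 libraries of a group in black. The stimulated libraries of Il1a, Il1b, Il18 and Il1rn stand far above the unstimulated ones in both genotypes, while the receptors overlap or nearly so; the high KO_media point of Il1b is replicate 1 and the low WT_Pam3 point of Il1rap is replicate 5.

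Il1rn, the receptor antagonist, ran from 666 to 781 CPM in KO_Pam3 (median 699) and from 587 to 723 CPM in WT_Pam3 (median 630). It ran from 17.2 to 19.6 CPM in KO_media (median 18.8) and from 16.9 to 20.2 CPM in WT_media (median 18.1). The groups with and without Pam3 did not overlap. Il1rn rose by 5.26 on the log2 scale in KO (SE 0.0631, adjusted p = 2.59e-30 by edgeR) and by 5.14 in WT (SE 0.0628, adjusted p = 3.44e-30), a fitted 38.2-fold and 35.2-fold. Il18bp, the soluble trap for IL-18, was already present in media and changed little. It averaged 33.0 ± 1.51 CPM in KO_Pam3 and 27.2 ± 3.73 CPM in KO_media, and 37.4 ± 3.83 CPM in WT_Pam3 and 26.3 ± 1.07 CPM in WT_media (SD, n = 6). All 6 WT_Pam3 libraries lay above all WT_media libraries, but only 2 of 6 KO_Pam3 libraries lay above all KO_media libraries, of which replicate 1 was at 34.0 CPM and the others at 23.7 to 28.0. The log2 fold change was 0.28 in KO (SE 0.0701, adjusted p = 0.000625 by edgeR), or 0.36 without KO_media replicate 1, and 0.51 in WT (SE 0.0701, adjusted p = 1.96e-07).

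The scaling decided the direction of Il18bp. With plain library sizes in place of TMM the median over all genes moved to -0.56 in KO and -0.58 in WT, genes called higher and lower numbered 3685 and 8935 in KO and 3584 and 9055 in WT (5803 and 6470, and 5859 and 6376, with TMM), and Il18bp stood at -0.20 in KO (adjusted p = 0.00713 by edgeR) and -0.01 in WT (adjusted p = 0.863). TMM factors were 0.813 to 0.862 in stimulated libraries and 1.17 or more in unstimulated ones. Relative to the median gene, Il18bp was higher after Pam3 under either scaling. Il18bp also shares 80 bases with Numa1 on the opposite strand, and Numa1 was far lower after Pam3, at 7.49 RPKM in KO_Pam3 against 30.9 RPKM in KO_media and at 7.38 RPKM in WT_Pam3 against 29.8 RPKM in WT_media. The kit does not mark strand, so reads in that stretch cannot be told apart.

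Among the receptors, Il1rap, the accessory chain shared by the receptors for IL-1, IL-33 and IL-36, rose modestly. It ran from 12.6 to 14.9 CPM in KO_Pam3 (median 14.2) and from 7.77 to 10.6 CPM in KO_media (median 9.02), with no overlap. It ran from 7.34 to 14.2 CPM in WT_Pam3 (median 12.9) and from 7.28 to 10.5 CPM in WT_media (median 8.26), and the overlap came from WT_Pam3 replicate 5 alone. The log2 fold change was 0.63 in KO (SE 0.106, adjusted p = 5.26e-06 by edgeR) and 0.50 in WT (SE 0.108, adjusted p = 0.000143), the last being 0.61 without WT_Pam3 replicate 5. With plain library sizes it was 0.14 in KO (adjusted p = 0.208) and -0.03 in WT (adjusted p = 0.826). Both lay above the median over all genes under that scaling, -0.56 in KO and -0.58 in WT.

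Il1r1, the signalling receptor, was low in all groups and did not pass the test with Pam3 in either genotype. It ran from 0.940 to 1.57 CPM in KO_Pam3 and 0.773 to 1.58 in KO_media, and from 0.707 to 1.38 CPM in WT_Pam3 and 1.07 to 1.29 in WT_media, so the groups overlapped. The log2 fold change was 0.05 in KO (95% interval -0.26 to 0.35, adjusted p = 0.788 by edgeR) and -0.21 in WT (-0.53 to 0.12, adjusted p = 0.250). With plain library sizes it passed as lower, at -0.44 in KO (adjusted p = 0.0138) and -0.73 in WT (adjusted p = 0.000303). The median over all genes was then -0.56 in KO and -0.58 in WT, so Il1r1 lay above the median gene in KO and below it in WT. Il1r2, the decoy receptor, had 1 to 14 counts a library. Its log2 fold change was -0.59 in KO (95% interval -1.25 to 0.06, adjusted p = 0.0973) and 0.14 in WT (-0.60 to 0.87, adjusted p = 0.734), and neither passed the test. In KO it passed as lower with plain library sizes (-1.07, adjusted p = 0.00406), without KO_Pam3 replicate 4 (-0.99, adjusted p = 0.00894) and without KO_media replicate 4 (-0.72, adjusted p = 0.0463).

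**Figure D2:**
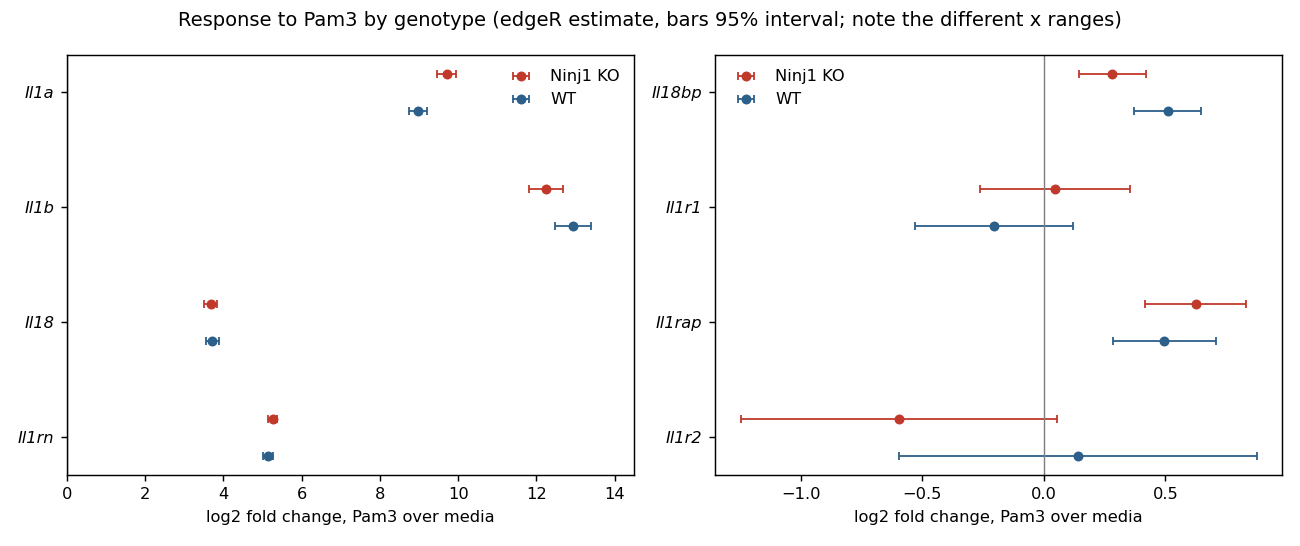
Log2 fold change of Pam3 over media for the 8 tested genes in KO (red, above) and WT (blue, below) macrophages, edgeR estimates with 95% intervals. The left panel (Il1a, Il1b, Il18, Il1rn) spans 0 to 14 and the right panel (Il18bp, Il1r1, Il1rap, Il1r2) a far narrower range around 0, where the bars of Il1r1 and Il1r2 cross 0; the points of Il1a lie higher in KO and those of Il1b higher in WT, of which only the Il1a difference passed its test.

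**Figure D3:**
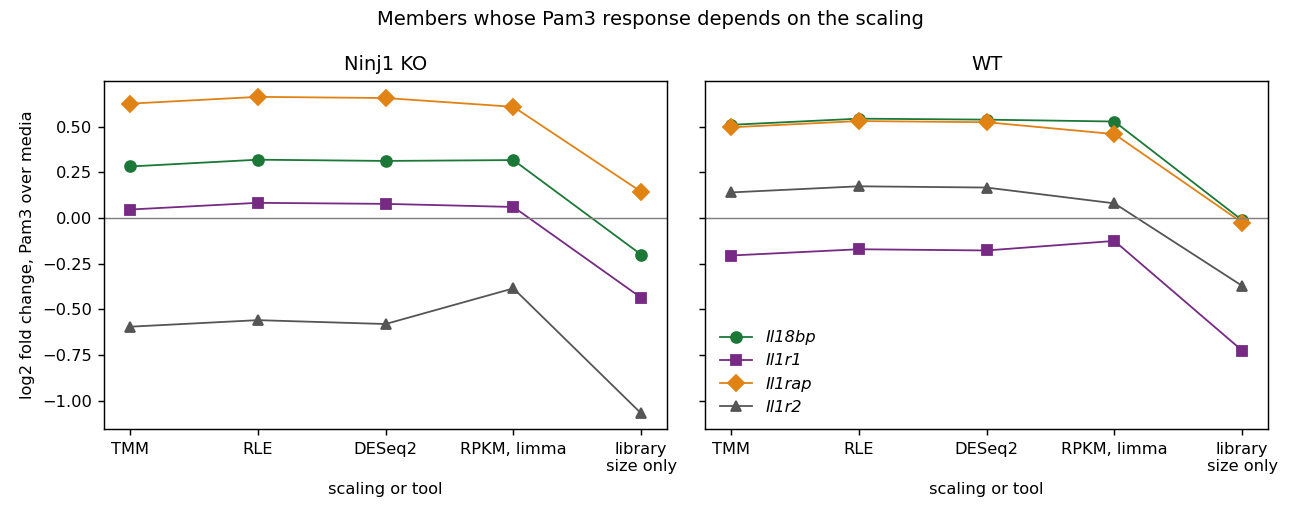
Log2 fold change of Pam3 over media (y axis) of the 4 genes with small responses under 5 scalings or tools (x axis; RPKM with a pseudocount of 0.1) in KO and WT macrophages. TMM, RLE, DESeq2 and limma on RPKM lie close together for Il18bp and Il1rap. For Il1r2 in KO limma lies nearer 0, where the pseudocount is of the order of the RPKM values. Plain library size moves all 4 genes down, taking Il18bp to -0.20 in KO and Il1rap to -0.03 in WT.

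Ordered by the authors' RPKM, the stimulated profile was dominated by Il1b, followed by Il1a, Il1rn, Il18, Il18bp, Il1rap, Il1r1 and Il1r2 in both genotypes. In KO_Pam3 these averaged 3393, 310, 238, 64.9, 9.89, 1.49, 0.190 and 0.106 RPKM. In WT_Pam3 they averaged 2937, 280, 216, 62.9, 11.2, 1.27, 0.152 and 0.107 RPKM. Neighbours in this order whose libraries overlapped were Il1r1 and Il1r2 in each genotype and Il1a with Il1rn in WT_Pam3. In media Il18bp and Il1rn led. Il18bp averaged 7.98 RPKM in KO_media and 7.74 in WT_media, Il1rn 6.09 and 6.02, and Il18 4.995 and 4.69, with Il1rap, Il1b, Il1a, Il1r1 and Il1r2 all below 1 on average. Il1rn and Il18 overlapped in both unstimulated groups, as did Il1a with Il1b and Il1r1 with Il1r2, and in KO_media Il1rap with Il1b and Il1a with Il1r1 as well.

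The balance of inhibitor to agonist transcripts therefore differed between treatments by more than the spread of the libraries. Il1rn over Il1b, as a ratio of RPKM, was 0.0701 ± 0.00297 in KO_Pam3 and 11.1 ± 4.04 in KO_media, and 0.0742 ± 0.00877 in WT_Pam3 and 17.6 ± 5.18 in WT_media (SD, n = 6). WT_Pam3 replicate 5 had the lowest of the stimulated ratios, 0.0572. Set against the sum of Il1a and Il1b, Il1rn was at 0.0642 ± 0.00268 in KO_Pam3 and 6.80 ± 2.27 in KO_media, and at 0.0676 ± 0.00736 in WT_Pam3 and 6.66 ± 0.855 in WT_media. Il1rn over Il1a alone was 0.767 ± 0.0364 in KO_Pam3 and 18.9 ± 8.05 in KO_media, and 0.775 ± 0.0518 in WT_Pam3 and 11.1 ± 0.627 in WT_media. The antagonist's transcript was thus more abundant than either agonist's in every unstimulated library and less abundant than either in every stimulated one, although Il1rn itself had risen. Il18bp over Il18 was 0.153 ± 0.00604 in KO_Pam3 and 1.59 ± 0.0451 in KO_media, and 0.179 ± 0.0104 in WT_Pam3 and 1.68 ± 0.228 in WT_media. The ranges of this last ratio did not overlap between KO_Pam3 (0.146 to 0.161) and WT_Pam3 (0.170 to 0.193), a description that carries no test. Il1r2 over Il1r1, decoy over signalling receptor, overlapped between treatments, at 0.160 to 1.29 in KO_Pam3 and 0.438 to 1.72 in KO_media. It ran from 0.410 to 0.994 in WT_Pam3 and from 0.359 to 0.988 in WT_media, and Il1r2 had few reads. RNA ratios do not give the ratio of the proteins.

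**Figure D4:**
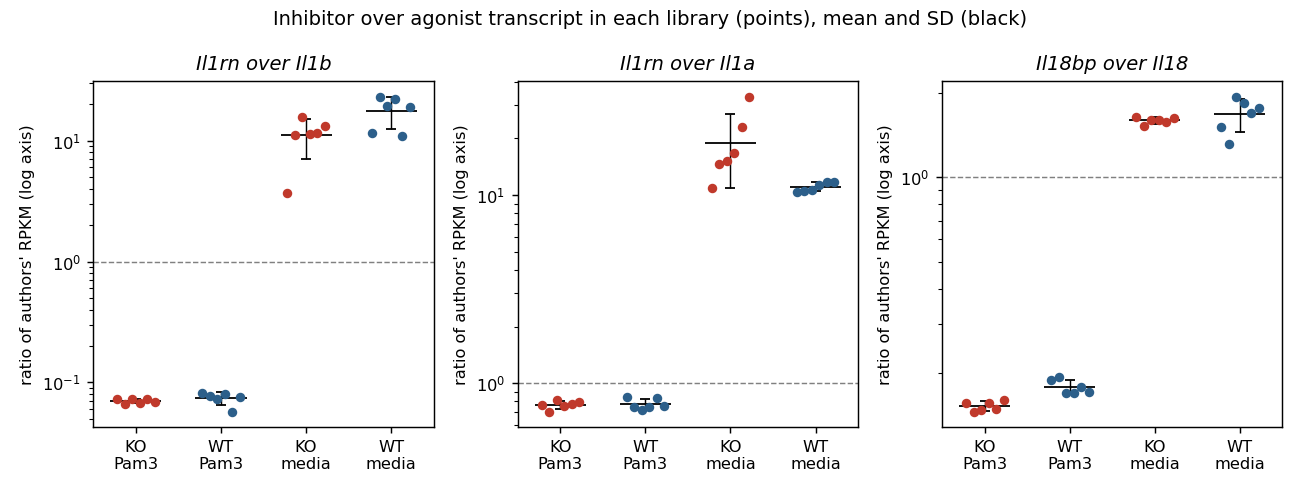
Ratio of the authors' RPKM of an inhibitor to that of its agonist in each library (points; log axis), with mean and SD in black and a dashed line at a ratio of 1. All unstimulated libraries lie above 1 and all stimulated libraries below 1 for Il1rn over Il1b, Il1rn over Il1a and Il18bp over Il18.

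Between genotypes after Pam3, no member passed the test. KO against WT gave 0 of 8 members called, where 4.06% of all tested genes were called (1.31% higher and 2.75% lower), and 3 members (Il1rn, Il18bp and Il1rap) had an unadjusted p under 0.05 by edgeR, as did 2354 of the 14435 tested genes. Without WT_Pam3 replicate 5 the genes called numbered 352 higher and 826 lower, against 189 and 397 with it. Il1b averaged 5071 ± 184 CPM in KO_Pam3 and 4385 ± 404 CPM in WT_Pam3 (log2 0.21, 95% interval -0.04 to 0.46, adjusted p = 0.439). Its call depended on single libraries. WT_Pam3 replicate 5, at 5142 CPM, lay inside the KO_Pam3 range, and the other WT_Pam3 libraries lay below it at 3963 to 4460 CPM. The difference passed without KO_media replicate 1 (0.23, adjusted p = 0.0391 by edgeR) and without both that library and WT_Pam3 replicate 5 (0.26, adjusted p = 1.05e-05), and missed the threshold without WT_Pam3 replicate 5 alone (0.26, adjusted p = 0.0570). KO_media replicate 1 is in neither group compared here and enters only through the fit shared by all 24 libraries. Of 8 alternatives other than leaving out 1 library, 7 gave no call, with adjusted p up to 0.787 by the test of each.

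Il1a averaged 675 ± 35.1 CPM in KO_Pam3 and 608 ± 50.4 CPM in WT_Pam3 (log2 0.15, adjusted p = 0.328 by edgeR), and 3 of 6 KO_Pam3 libraries exceeded every WT_Pam3 library. Il1rn averaged 709 ± 41.3 and 645 ± 50.0 CPM in KO_Pam3 and WT_Pam3 (log2 0.14, adjusted p = 0.155), and passed with plain library sizes (0.19, adjusted p = 0.0305). Il18bp was the only tested member with a lower estimate in KO_Pam3, at -0.18 (adjusted p = 0.167), with 4 of 6 KO libraries below all WT libraries. Il18 stood at 0.05 (95% interval -0.09 to 0.18, adjusted p = 0.792), Il1rap at 0.23 (adjusted p = 0.287) and 0.12 without WT_Pam3 replicate 5, Il1r1 at 0.32 (-0.02 to 0.65, adjusted p = 0.364) and Il1r2 at 0.02 (-0.74 to 0.79, adjusted p = 0.987). A missed threshold does not show equal levels, and for the 2 low receptors differences of up to the ends of these intervals cannot be told from none.

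In media, 1 of 8 members passed, Il1a, which was lower in KO, against 3.03% of all tested genes called in either direction, 1.92% higher and 1.12% lower. Without WT_Pam3 replicate 5 the genes called numbered 658 higher and 616 lower, against 277 and 161 with it. Il1a averaged 0.813 ± 0.312 CPM in KO_media and 1.21 ± 0.0825 CPM in WT_media (log2 -0.58, SE 0.160, adjusted p = 0.0458 by edgeR). The WT libraries were tightly grouped and 5 of 6 KO libraries lay below all of them, the exception being KO_media replicate 1 at 1.31 CPM. Without that library the difference was -0.76 (adjusted p = 0.00317). The call stood close to the threshold: of 24 fits that each left out 1 library, 5 kept it, namely those without KO_media replicate 1, KO_media replicate 2, WT_Pam3 replicate 4, WT_Pam3 replicate 5 or KO_Pam3 replicate 5, and the estimate ranged from -0.76 to -0.45 (adjusted p from 0.00317 to 0.122).

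Il1b in media leaned the other way, at 1.06 ± 0.799 CPM in KO_media and 0.561 ± 0.176 CPM in WT_media (log2 0.90, SE 0.298, adjusted p = 0.112 by edgeR). KO_media replicate 1, with 104 counts and 2.68 CPM, stood above the other KO_media libraries, which ran from 0.548 to 0.886 CPM, and without it the difference was 0.41 (adjusted p = 0.296). The threshold was passed without WT_Pam3 replicate 5 (0.90, adjusted p = 0.0436), a library of neither group compared here, and without KO_media replicate 3 (1.03, adjusted p = 0.0497). Il1r2 had the next largest estimate, 0.76 (95% interval 0.14 to 1.37, adjusted p = 0.262), from 65 counts over KO_media and 39 over WT_media. The other 5 tested members lay between 0.02 and 0.10 on the log2 scale. Summed marker levels of some other cell types leaned higher in KO in media: granulocyte markers (11 genes) summed to 258 to 282 CPM in KO_media and 228 to 245 in WT_media, stromal and endothelial markers (14 genes) to 74.8 to 127 and 60.3 to 71.1, and dendritic cell markers (7 genes) to 10.1 to 12.1 and 7.83 to 10.3, with no marker at 0. Of these 3 sums, only the dendritic one overlapped between the groups. By the edgeR test 5 of 11 tested granulocyte markers, 7 of 13 stromal and endothelial markers and 1 of 6 dendritic cell markers (Fscn1) were higher in KO. None of these lists had a marker called lower, and over all tested genes 1.92% were called higher and 1.12% lower. Lymphocyte markers (7 genes) summed to 1.37 to 2.28 CPM in KO_media and 1.88 to 2.28 in WT_media, and mast cell and basophil markers (6 genes) to 8.29 to 10.8 and 9.40 to 11.7, with Mcpt4 at 0 in both groups and Tpsb2 at 0 in WT_media. Their part in the genotype differences was not tested, and in bulk RNA more cells of a type and more RNA per cell cannot be told apart. The sums of these first 3 lists were also higher after Pam3 in both genotypes, although single genes went both ways: 3 granulocyte markers rose and 7 fell in each genotype (medians -0.92 in KO and -0.97 in WT on the log2 scale), 5 stromal and endothelial markers rose while 3 fell in KO and 1 in WT, and 2 dendritic cell markers rose while 2 fell in KO and 3 in WT. With Pam3, 40.2% of all tested genes rose and 44.8% fell in KO, and 40.6% and 44.2% in WT. The granulocyte, stromal and dendritic sums were 722 to 824, 201 to 256 and 192 to 225 CPM in KO_Pam3, and 708 to 763, 142 to 211 and 171 to 218 CPM in WT_Pam3, and their part in the Pam3 responses was not tested either.

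**Figure D5:**
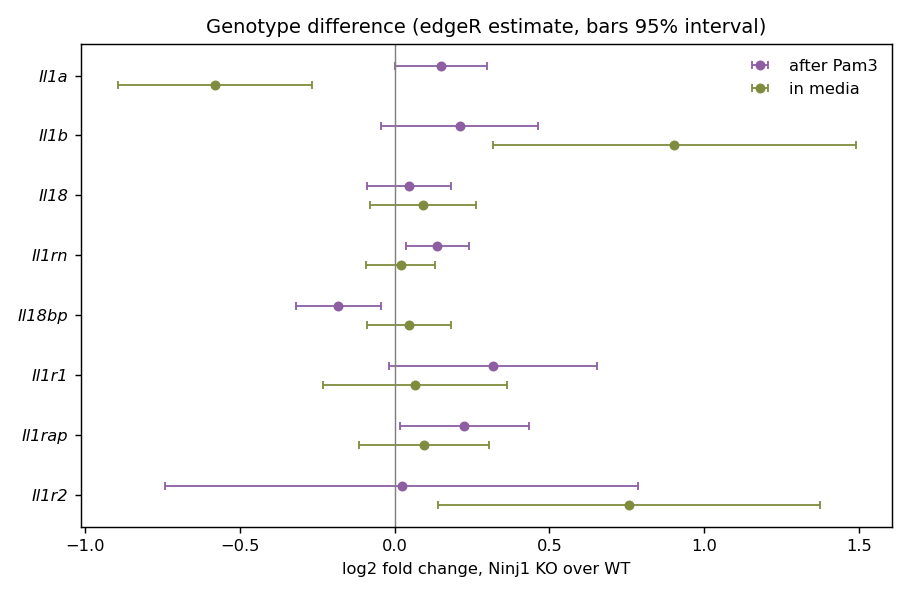
Log2 fold change of KO over WT for the 8 tested genes after Pam3 (purple, above) and in media (olive, below), edgeR estimates with 95% intervals. In media Il1a lies at -0.58 and Il1b at 0.90, and after Pam3 all 8 estimates lie between -0.18 and 0.32. The bars are not adjusted over genes, so a bar clear of 0 is not a call.

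The response to Pam3 itself differed between genotypes for 1 member of 8, Il1a, against 0.762% of all tested genes (0.173% with a larger and 0.589% with a smaller response in KO). Without WT_Pam3 replicate 5 the genes called numbered 102 larger and 442 smaller, against 25 and 85 with it. Its response was 0.73 larger in KO on the log2 scale (SE 0.177, adjusted p = 0.0471 by edgeR), which combines a higher estimate after Pam3 (0.15) with a lower one in media (-0.58). Of 24 fits without 1 library, 4 kept the call, those without KO_media replicate 1, KO_media replicate 2, WT_Pam3 replicate 5 or WT_Pam3 replicate 6, with estimates from 0.61 to 0.92 and adjusted p from 0.00421 to 0.0892. It was missed with RLE size factors (0.73, adjusted p = 0.0502 by edgeR). It was also missed by limma with a pseudocount of 0.1 (0.67, adjusted p = 0.0859) or 1 (0.33, adjusted p = 0.0586). The Il1b response differed by -0.69 (KO minus WT, adjusted p = 0.387), and by -0.83 to -0.19 when single libraries were left out. Il18bp stood at -0.23 (adjusted p = 0.336), Il1rn at 0.12 (adjusted p = 0.553) and Il18 at -0.05 (adjusted p = 0.883).

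The rest of the IL-1 and IL-18 receptor family mostly fell with Pam3, in contrast to the ligands above. Of 12 further ligands and receptors, 6 were tested, and in each genotype 1 rose and 5 fell. Over all tested genes 40.2% rose and 44.8% fell in KO, and 40.6% and 44.2% in WT. With no filter on low counts, and also by DESeq2, 2 of this list rose in each genotype. Of 27541 genes, 6303 rose in KO and 6185 in WT with no filter, and 6460 and 6492 by DESeq2. Sigirr, an inhibitory receptor of the family, was at 0.233 ± 0.0974 CPM in KO_Pam3 and 3.60 ± 0.261 CPM in KO_media (log2 -3.93), with 0.198 ± 0.0847 CPM in WT_Pam3 against 3.23 ± 0.330 CPM in WT_media (-3.99). Il1rl1, the IL-33 receptor, fell, with log2 fold changes of -2.93 in KO and -3.82 in WT. The 2 chains of the IL-18 receptor fell while Il18 rose: Il18rap at -2.56 in KO and -2.16 in WT on the log2 scale, and Il18r1, the binding chain, to 1 count over the 6 KO_Pam3 libraries, against 73 in KO_media, and to 2 counts in WT_Pam3, against 51 in WT_media. Among the 6 tested, the gene that rose was Il1f9, the annotation's symbol for IL-36 gamma, by 3.30 in KO and 3.59 in WT. The largest adjusted p of these values was 1.06e-06 by edgeR, for Il18r1 in WT. Between genotypes after Pam3, Il1rl1 (0.85, adjusted p = 0.0336) and Il1f9 (0.42, adjusted p = 0.0449) were higher in KO. Leaving out single libraries gave 0 to 3 calls there, 0 of them without KO_Pam3 replicate 1, KO_Pam3 replicate 4 or WT_Pam3 replicate 2. There were also 0 calls with no filter on low counts, with only the groups compared or by limma with a pseudocount of 0.1, and 1 by limma with a pseudocount of 1. Il1rl1 averaged only 0.545 CPM in KO_Pam3 and 0.302 CPM in WT_Pam3. No gene of this list passed in media or in the difference of responses by the edgeR test of all 24 libraries. In media 1 was higher in KO by DESeq2, with only the groups compared, by limma with a pseudocount of 1, without KO_Pam3 replicate 2, WT_Pam3 replicate 5, KO_media replicate 2 or KO_media replicate 5, and with KO_media replicate 1 and WT_Pam3 replicate 5 both out. Il1f8, Il1f5, Il1f10, Il1rapl1 and Il1rapl2 had 0 counts in all 24 libraries, and Il1f6 (IL-36 alpha) had 41 counts over KO_Pam3, 27 over WT_Pam3 and 0 in media.

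Downstream of the receptor, 14 of 18 tested genes of IL-1 receptor signalling rose and 3 fell with Pam3 in KO, and 13 rose and 4 fell in WT, with medians of 0.56 and 0.47 on the log2 scale. The shares over all tested genes were 40.2% rising and 44.8% falling in KO, and 40.6% and 44.2% in WT. Irak3, the inhibitory IRAK, rose by 4.13 in KO and 4.12 in WT, Irak2 by 3.45 and 3.49, and the adaptor Myd88 by 2.18 and 2.42, while the ubiquitin ligase Peli2 fell, with log2 fold changes of -4.22 and -4.38. With plain library sizes 9 rose and 5 fell in KO and 9 fell in WT. Under that scaling 3685 of all 14435 tested genes rose and 8935 fell in KO, and 9055 fell in WT. The genes of this list also serve Toll-like receptors. In media Myd88 was higher in KO, 102 ± 6.80 CPM in KO_media against 89.1 ± 1.77 CPM in WT_media (log2 0.19, adjusted p = 0.0114 by edgeR), and no other gene of the list passed between genotypes at either treatment in that test. With only the groups compared 2 were higher and 2 lower in media, without WT_Pam3 replicate 5 1 was lower in media, and with plain library sizes 1 was higher after Pam3.

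Of 17 genes of IL-1 maturation and release, 8 rose and 8 fell with Pam3 in KO and 7 rose and 7 fell in WT. These counts lie near the shares over all tested genes, 40.2% rising and 44.8% falling in KO and 40.6% and 44.2% in WT. The inflammasome sensors Nlrp3 (4.55 in KO and 4.58 in WT) and Mefv (4.66 and 4.90) and the protease Casp4 (3.51 and 3.90) rose, and the calpain Capn2 fell, with log2 fold changes of -1.04 and -0.94. In WT 11 fell with plain library sizes, a scaling under which 9055 of all 14435 tested genes fell in WT. In media Mefv was higher in KO, at 4.61 ± 0.732 CPM in KO_media against 3.68 ± 0.414 CPM in WT_media (log2 0.32, adjusted p = 0.0209 by edgeR), and the count called higher was 4 without WT_Pam3 replicate 5 and 0 without KO_media replicate 1, KO_media replicate 6 or WT_media replicate 3. After Pam3 none passed, and 2 passed as lower without WT_Pam3 replicate 5.

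The genes most like each member were ranked over the 4 group means, by the root mean square difference of centred log2 CPM among 11531 genes, as a description only. Nearest to Il1b was Ptgs2, which encodes the prostaglandin synthase COX-2 (difference 0.123), before Shisa3 (0.275) and Il6 (0.324). Nearest to Il1a were Tnf (0.255), Mir155hg (0.287) and Slc13a3 (0.290). Il1rn was closest to Ets2 (0.0421), Rtn2 (0.0480) and Tma16 (0.0497), and Il18 to Ebi3 (0.0297), Itga5 (0.0406) and Cers6 (0.0418). Ptgs2 stood at 3015 CPM in KO_Pam3, 2877 in WT_Pam3, 0.559 in KO_media and 0.273 in WT_media. For members with small responses the nearest were Mrpl55, Atp5e and Lsm4 for Il18bp, Fbrsl1, Rpp38 and Errfi1 for Il1rap, Btbd19, Zfa-ps and Fam135a for Il1r1, and Inhbb, Postn and Amotl2 for Il1r2, with differences of 0.0105 to 0.0629. A flat profile is matched closely by many genes, and with only 4 points a small difference is no sign of a shared property.

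Overlapping gene models touch some members. Il1b overlaps the antisense gene Il1bos, which had at most 42 counts in a library, and Il1a overlaps Gm14023, at most 25. In media Gm14023 had 16 to 24 counts a library in KO_media and 13 to 25 in WT_media, beside 18 to 51 and 44 to 61 of Il1a, and without strand the assignment of reads in the shared stretch is uncertain. Il1r2 overlaps the antisense gene Gm16894, which had up to 9 counts in a library beside a median of 5.5 for Il1r2, so its values are uncertain in the same way. Il18 overlaps Bco2 by 355 bases, and Bco2 moved with it, averaging 4.93 RPKM in KO_Pam3, 5.01 in WT_Pam3, 0.758 in KO_media and 0.697 in WT_media. Tex12, which also overlaps Il18, had 14 to 28 counts in stimulated libraries and 0 in media.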

How the data were processed

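PolyA RNA was sequenced with a TruSeq RNA v2 kit (unstranded) as single-end 50 bp reads on a HiSeq4000, per the labels' protocols. The submitters' processing notes name GSNAP and GRCm38, without settings. Per the file headers, the deposited counts are reads that align uniquely to a gene model, and the deposited RPKM values are adjusted by the authors with a size factor. Symbols and coordinates came from GENCODE mouse release 21, which matched 52489 of 52636 models; the other 147 held 0.0039% of reads.

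Counts were tested by the quasi-likelihood F-test of edgeR 4.0.16, in R 4.3.3, after TMM and filterByExpr (all 24 libraries in 1 fit with a mean per group, 14435 genes, biological coefficient of variation 8.21%). The difference of responses is KO minus WT. Standard errors are the fold change over the root of F, and 95% intervals are their normal approximation. These intervals are not adjusted over genes and are slightly narrower than the F-test implies. That of Il1a for KO against WT after Pam3, 0.002 to 0.298, leaves out 0 although its unadjusted p was 0.0578 by edgeR. CPM use TMM-adjusted library sizes. Uniquely aligned reads can be lost between close copies. No 2 libraries of a group agreed within sampling noise (chi-square per gene at least 2.54). Pairs with WT_Pam3 replicate 5 gave 116 to 142, against 2.55 to 7.67 for the other WT_Pam3 pairs. Pairs with KO_media replicate 1 gave 11.0 to 16.2, against 2.54 to 9.76 for the other KO_media pairs. Alternatives were RLE and plain library sizes, DESeq2 1.42.0, no filter, only the groups compared, limma 3.58.1 on log2 RPKM plus 0.1 or 1, each library left out, and, chosen after the data were seen, KO_media replicate 1 and WT_Pam3 replicate 5 both left out. The procedure was tested on simulated data, with genes changed in KO_Pam3 only and only KO against WT after Pam3 checked. Those data held no library that stood apart and no Pam3 response shared by both genotypes. They therefore say nothing of calls that depend on single libraries.

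The 9 members, the gene and marker lists, the motifs and the rule for similar genes were chosen with earlier results of these data known, so counts over them are descriptions. Named are the members, Ninj1, up to 4 genes of a list per comparison with the smallest adjusted p, list genes at 0 in most libraries, and the 3 genes most like each member, among those with at least 20 counts per library on average in their highest group, predicted models left out.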

Additional observations from a re-analysis of the deposited data

Results flagged for a closer look

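Levels were examined for libraries far from the rest of their group by Dixon's gap ratio with its 95% critical value of 0.625 for 6 libraries, in 32 groups of 6, and 3 stood out. Chance marks about 1 in 20 such groups.

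Il1b in KO_media replicate 1 was at 2.68 CPM, against 0.548 to 0.886 CPM in the other KO_media libraries (gap ratio 0.842). In the same library Il18bp was at 34.0 CPM against 23.7 to 28.0, and Il1a at 1.31 CPM against 0.424 to 0.976.

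Il1rap in WT_Pam3 replicate 5 was at 7.34 CPM, against 11.9 to 14.2 CPM in the other WT_Pam3 libraries (gap ratio 0.666). That library also held the lowest Il1a of its group, 514 CPM against 602 to 665, and the highest Il18, 83.9 CPM against 64.6 to 73.2. Its mitochondrial share was 0.336% and its Xist level 233 CPM, the lowest of the 24 libraries in each.

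Il1r2 in WT_media replicate 1 was at 0.295 CPM, against 0.0929 to 0.153 CPM in the other WT_media libraries (gap ratio 0.703), a difference of a few counts.

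The Pam3 response of Il1a differed between genotypes by the test of the difference itself, 0.73 larger in KO on the log2 scale (SE 0.177, edgeR adjusted p = 0.0471). This call was close to the threshold: 4 of 24 fits without 1 library kept it, and RLE size factors and limma at either pseudocount missed it. In media it rests on 18 to 51 counts a library in KO_media and 44 to 61 in WT_media.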

How the results depend on the processing

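Calls of Il1b, Il1a, Il1rn and Il18 as higher with Pam3 held in both genotypes under every alternative run. With plain library sizes 3685 of all 14435 tested genes rose with Pam3 and 8935 fell in KO, and 3584 and 9055 in WT. Counts of members called that changed were, with plain library sizes, 4 in place of 6 higher with Pam3 in each genotype, 3 lower with Pam3 in KO, 1 lower with Pam3 in WT and 1 higher in KO after Pam3 (also 1 with KO_media replicate 1 and WT_Pam3 replicate 5 both out). In media 0 were lower in KO with only the groups compared or limma at a pseudocount of 1. For the difference of responses 0 were higher with RLE size factors or limma at 0.1 or 1. Leaving out single libraries gave 0 to 1 lower with Pam3 in KO, 0 to 1 higher in KO after Pam3, 0 to 1 higher and 0 to 1 lower in KO in media, and 0 to 1 higher for the difference of responses.

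Estimates that changed sign with plain library sizes were, with Pam3, Il18bp (-0.20 in KO, -0.012 in WT), Il1r1 in KO (-0.44), Il1rap in WT (-0.026) and Il1r2 in WT (-0.37). With both libraries out they were Il1r1 with Pam3 in KO (-0.051), Il18bp in media (-0.027) and the Il18 difference of responses (0.067). Il1r2 after Pam3 was -0.045 and -0.0027 with limma at 0.1 and 1. With single libraries out, ranges that crossed 0 were Il1r2 after Pam3 (-0.37 to 0.21), Il1r1 with Pam3 in KO (-0.045 to 0.13), in media Il1rn (-0.0045 to 0.053), Il18bp (-0.027 to 0.081) and Il1r1 (-0.010 to 0.17), and the Il18 difference of responses (-0.092 to 0.033). The cause was not tested. Of the values that changed sign, only Il18bp with Pam3 in each genotype and Il1rap with Pam3 in WT had passed the test.

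Over all genes, KO against WT after Pam3 gave 189 higher and 397 lower calls, and 412 and 220 with plain library sizes, 265 and 602 with DESeq2, 183 and 183 with no filter, 63 and 114 with only the groups compared, and 352 and 826 without WT_Pam3 replicate 5. In media it gave 277 and 161, 381 and 271 with DESeq2, 581 and 531 with only the groups compared, and 658 and 616 without that replicate. The difference of responses gave 25 larger and 85 smaller in KO, 85 and 305 with DESeq2, 22 and 41 with no filter, and 102 and 442 without WT_Pam3 replicate 5. No paired analysis was possible because the labels give no replicate numbers that the groups share. Depth limits Il1r1, Il1r2 and, in media, Il1a and Il1b, which had at most 104 counts a library there.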
